A study of Gallus gallus with 4 samples.

Results

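The 4 HOX gene clusters of the chick carry the longest stretches of the repressive histone mark H3K27me3 in otic-epibranchial progenitors (OEPs), the ectodermal cells that give rise to the inner ear and the epibranchial ganglia. The regions described here are 4 windows of the GalGal6 genome, at 32.32 to 32.98 Mb of chromosome 2 (HOXA), 5.89 to 6.56 Mb of chromosome 27 (HOXB), 7.27 to 7.92 Mb of chromosome 33 (HOXC) and 16 to 16.6 Mb of chromosome 7 (HOXD). They were chosen by the measured H3K27me3 peaks, as the surroundings of its 4 longest runs, so the length, cover and fold enrichment of H3K27me3 in the runs are given as a description with no test. Every peak of 3 peak lists that overlapped a window was kept, which gave 439 of 95837 peaks. Of these, 128 of 45426 were H3K27ac peaks, 183 of 27344 were H3K4me3 peaks and 128 of 23067 were H3K27me3 peaks.

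The tissue was OEP ectoderm of chick embryos at the stage of 8 to 9 somites, with about 200 pieces pooled. Chromatin immunoprecipitation followed by sequencing (ChIPseq) was carried out with antibodies against H3K27ac, H3K4me3 and H3K27me3, with 1 library for each mark. A library made without antibody (input) completes the series and is not analysed here. No treatment or genotype separates the libraries, so the comparisons are between marks and between places in the genome. There are no replicates, no p-value is given, and the number of reads behind each peak is unknown. The intervals given with shares are exact Clopper-Pearson 95% intervals over peaks and cover counting error only. Neighbouring peaks share a library and a locus and are not independent. Because the tissue was pooled, an overlap of 2 marks does not tell one cell with both marks from a mixture of cells with one each. At this stage the field also holds neural and neural crest precursors, and the peak lists carry no gene names from which tissue markers could be checked.

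HOX genes encode homeodomain transcription factors that give cells their position along the head-to-tail axis, and within a cluster the low-numbered genes are switched on earlier and further forward than the high-numbered ones. H3K27me3 is deposited by Polycomb repressive complexes and spreads over silent developmental genes, HOX clusters being its classic target. H3K4me3 marks the start sites of genes, H3K27ac marks active promoters and enhancers, and promoters that carry H3K4me3 and H3K27me3 together are called bivalent.

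The window names follow the rule by which the windows were set, since no annotation of GalGal6 was used. In the gene table of the GRCg7b assembly, a different build, 11 HOXA genes stood on chromosome 2 between SKAP2, an adaptor protein of Src kinase signalling, and EVX1, a homeodomain factor related to the HOX genes. On chromosome 27, 9 HOXB genes stood between CALCOCO2, an autophagy receptor, and SKAP1. On chromosome 7, 9 HOXD genes stood between MTX2, a mitochondrial import protein, and EVX2. The table placed 6 HOXC genes, HOXC8 to HOXC13, on chromosome 34 between SMUG1, a DNA repair glycosylase, and ATP5G2, whereas the peak lists have the HOXC window on chromosome 33. In that build HOXB1 is the last HOXB gene by coordinate. Whether GalGal6 runs in the same direction was not tested, so no peak is assigned to a gene, exon or intron, and the ends of each run are called the low and the high end by coordinate.

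Inside each window, H3K27me3 peaks that lay within 3 kb of each other were joined, and the longest joined stretch is called the run. The HOXB run was the longest, at chr27:6138238-6312858, with 174.6 kb built of 9 peaks. The HOXA run followed at chr2:32571399-32728786, with 157.4 kb built of 22 peaks. The HOXC run spanned 150.3 kb and 15 peaks at chr33:7520759-7671068. The HOXD run was the shortest, with 93.0 kb and 10 peaks at chr7:16252090-16345111. Each run stood alone in its window. The next longest H3K27me3 stretch was 14.4 kb in the HOXC window, 7.42 kb in HOXB, 2.82 kb in HOXD and 0.736 kb in HOXA.

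**Figure D1:**
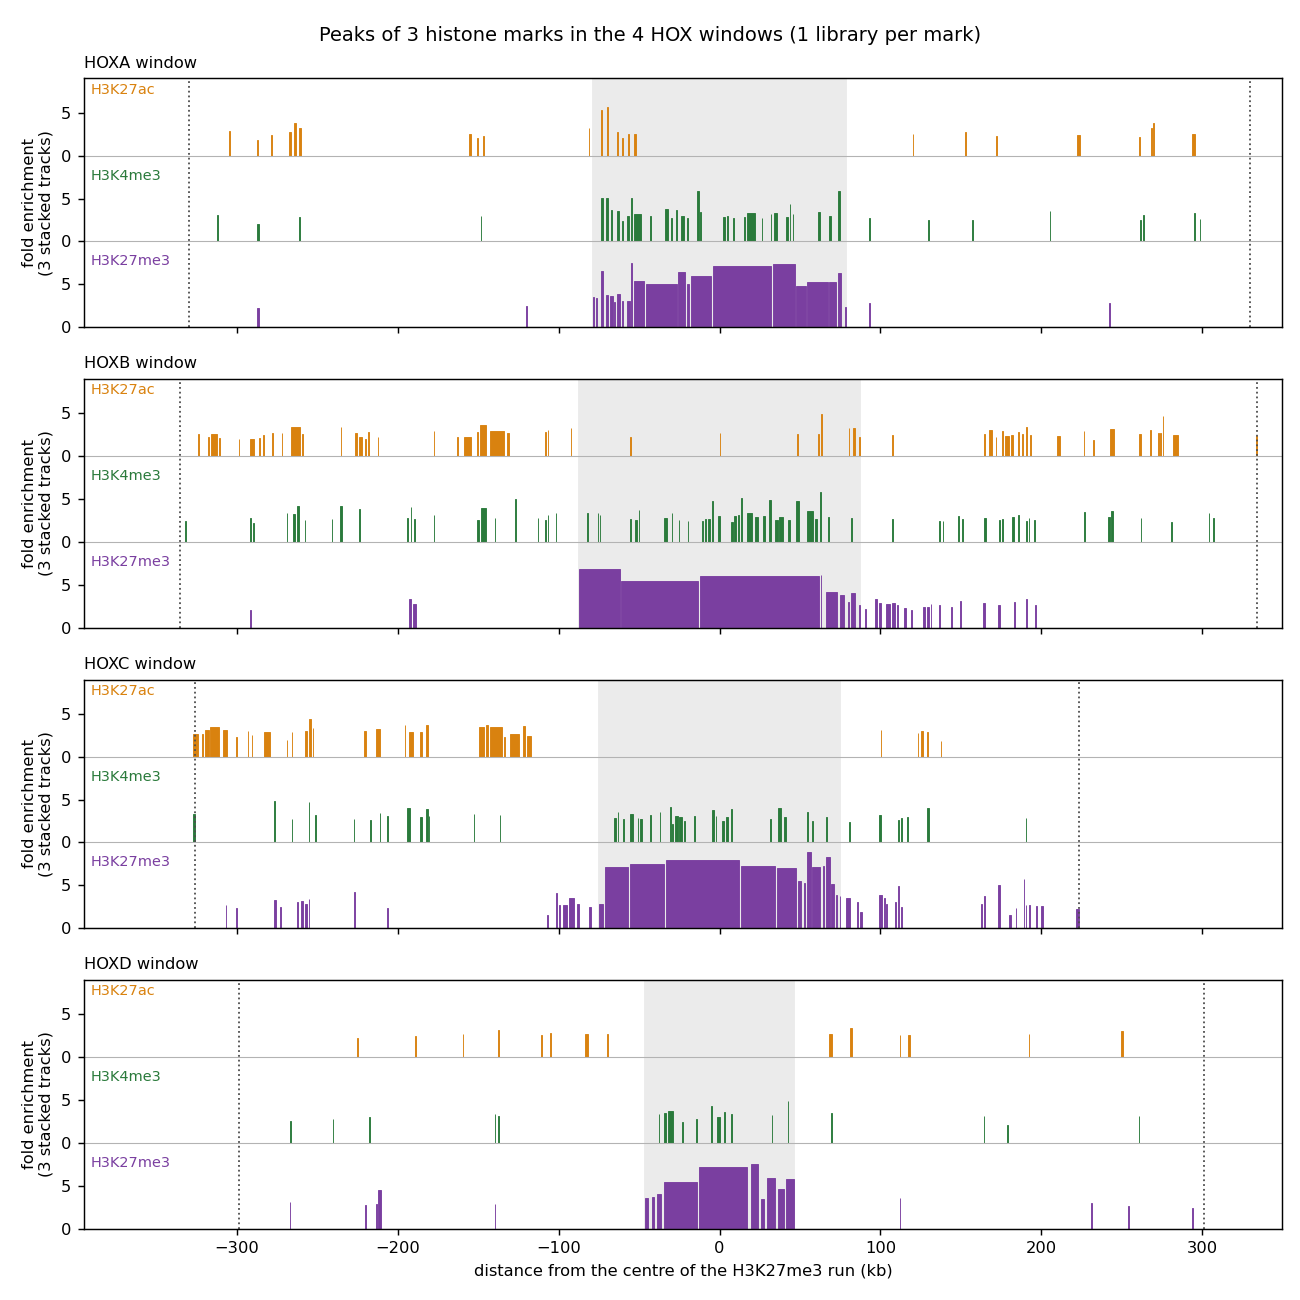
Peaks of H3K27ac (orange), H3K4me3 (green) and H3K27me3 (purple) in the 4 HOX windows, drawn to scale against the distance from the centre of the H3K27me3 run in kb, with bar height giving the fold enrichment of the peak. Grey shading marks the run and dotted lines the ends of the window, or the last peak of the chromosome in HOXC. H3K4me3 gathers inside all 4 runs, while H3K27ac lies inside the HOXA and HOXB runs and is missing from the HOXC and HOXD runs.

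The runs differed in how they were built. In HOXB, 3 peaks of 25178, 47676 and 74129 bp made up most of the run, and the last of these, at chr27:6213329-6287457, was the widest peak of the H3K27me3 list. H3K27me3 peaks covered 92.2% of the HOXB run, 87.6% of HOXC, 82.3% of HOXD and 81.9% of HOXA. The widest HOXA peak, at chr2:32645949-32682344, measured 36396 bp and the widest HOXC peak, at chr33:7562736-7608333, measured 45598 bp. In HOXD the widest peak was 30201 bp, at chr7:16285761-16315961. HOXA was thus the most broken of the runs, with 21 gaps against 8 in HOXB, 14 in HOXC and 9 in HOXD.

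Fold enrichment over the background that the peak caller estimates was highest in HOXC. Its 15 H3K27me3 peaks had a median of 7.11 and reached 8.95, at chr33:7650118-7652516. The median was 5.06 in HOXA, 5.04 in HOXD and 4.19 in HOXB. The low HOXB median came from the small peaks at one end, since weighting by width raised it to 5.81, beside 5.99 in HOXA, 6.11 in HOXD and 7.38 in HOXC. Over all 4 runs, 38 of 56 H3K27me3 peaks (67.9%, 54.0 to 79.7) had a fold enrichment of at least 4, as did 6 of 72 in the flanks (8.33%) and 10.2% of the whole list. Since these values chose the windows, nothing is read from that difference.

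H3K27me3 was thinner in at least 1 end part of each run than in its middle part. A run was extended through every peak within 3 kb, which favours sparse ends, so these shares are a description only. With each run divided into 3 equal parts, the middle part was covered to 92.9% in HOXA, 98.2% in HOXB, 97.6% in HOXC and 96.6% in HOXD. Cover fell to 68.1% at the low end of HOXA. It fell at the high end of the other runs, to 80.4% in HOXB, 72.5% in HOXC and 70.2% in HOXD. The opposite end stayed at 84.8% in HOXA, 98.0% in HOXB, 92.6% in HOXC and 80.2% in HOXD. HOXA therefore had its fragmented end at low coordinates, and HOXB and HOXC had theirs at high coordinates, while both ends of HOXD were less covered than its middle.

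The 52 gaps within the runs were almost bare of the other marks. None could exceed 3 kb, since that joining distance set the upper limit of their length. They measured 943 to 2781 bp, with a median of 1236.5 bp, and 48 of 52 held no part of any H3K4me3 or H3K27ac peak. No peak of either mark lay wholly within a gap. Gaps took up 77.2 kb. H3K4me3 covered 0.977% of that length, beside 19.5% of the length under H3K27me3 peaks and 1.66% of the span of the whole list. For H3K27ac these shares were 0.510%, 1.80% and 4.50%. How many stretches of this length elsewhere hold neither mark was not counted. The count of 48 is therefore not read as unusual, and for H3K4me3 the gaps stand out mainly against the H3K27me3 peaks around them. The 4 gaps that another mark touched lay in the low part of the HOXA run or the high part of the HOXB run. In HOXA the gap at chr2:32577589-32579719, 6.19 kb from the low end, was touched by 2 H3K4me3 peaks. In HOXB the gap at chr27:6287458-6288511 was covered to 60.2% by H3K4me3, and the gaps at chr27:6288808-6291588 and chr27:6309955-6312047 were each touched by 1 H3K27ac peak. Whether sequence that cannot be mapped or is missing from the assembly underlies the bare gaps was not tested.

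H3K4me3 was concentrated inside the runs of all 4 windows. In HOXA it covered 22.1% of the run and 1.09% of the flanks, a ratio of 20.1. In HOXD it covered 9.56% and 0.997%, a ratio of 9.59. The ratios were smaller in HOXC (13.7% and 3.06%, 4.49) and HOXB (19.4% and 5.52%, 3.51), where the flanks held more H3K4me3. Their chromosomes held more as well, with H3K4me3 on 2.72% of chromosome 33 and 4.05% of chromosome 27. It covered 1.42% of chromosome 2 and 1.58% of chromosome 7. H3K4me3 cover was higher inside than outside in each window under every alternative run, but the size and order of the ratios were not stable. When peaks of all 3 marks below a fold enrichment of 4 were dropped, the HOXA ratio was 5.75, below the 11.6 of HOXC. That limit also shortened the HOXA run to 130.6 kb, so H3K4me3 peaks at its low end counted as flank. These were chr2:32576500-32577634 (5.03) and chr2:32579646-32580573 (5.10). In the HOXA run as first joined, 6 of 30 H3K4me3 peaks reached a fold enrichment of 4 (20%, 7.71 to 38.6). In its flanks 0 of 12 did (0%, 0 to 26.5), beside 7.68% of the whole list, and the intervals overlap. With all peaks but flanks of only 100 kb, the HOXA ratio was 39.6. With q-values limited to 0.01 the ratio was 60.1 in HOXA and 49.4 in HOXD. Pooled over the windows, H3K4me3 covered 17.0% of the runs, 2.63% of the flanks and 1.66% of the span of the whole list. The pooled ratio was 6.48, and it became 9.93 without the HOXB window and 10.03 when peaks were limited to a q-value of 0.01 or below.

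**Figure D2:**
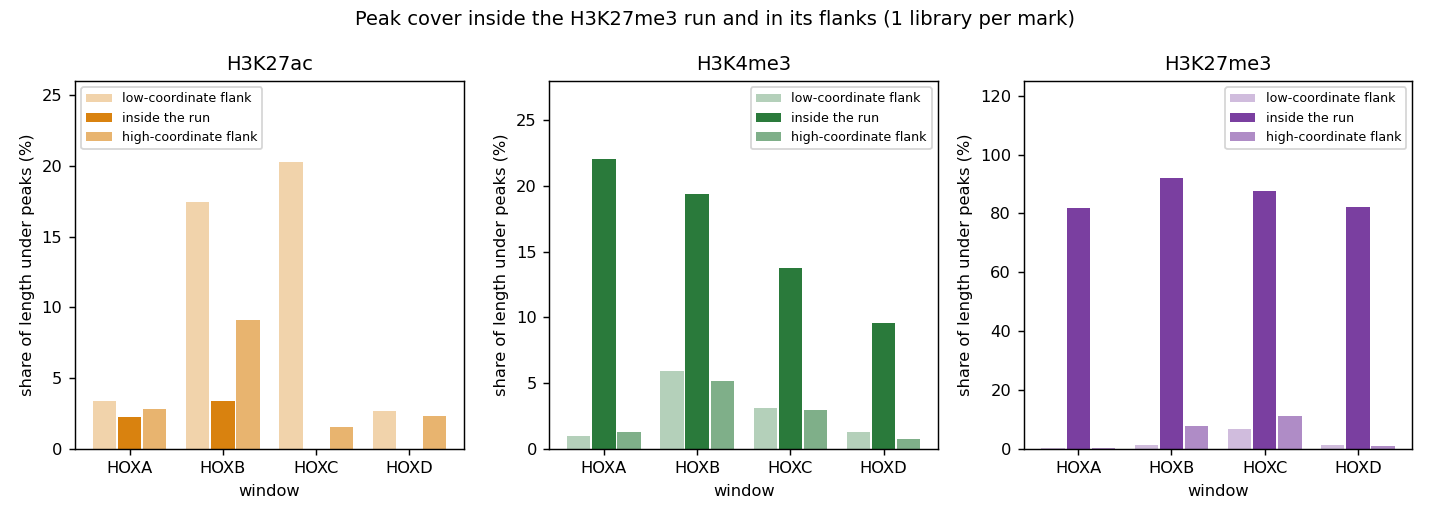
Share of length covered by peaks (%) of each mark in the flank at lower coordinates, inside the run and in the flank at higher coordinates, for the 4 windows, with 1 library for each mark and no error bars. H3K4me3 cover inside the run falls from 22.1% in HOXA to 9.56% in HOXD and exceeds both flanks in each window, while H3K27ac cover inside the run is below both flanks in each window.

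The H3K4me3 peaks numbered 30 in the HOXA run, 32 in HOXB, 25 in HOXC and 11 in HOXD. All 98 overlapped a H3K27me3 peak by at least 1 bp. H3K27me3 covered 86.6% of the runs by construction, which leaves little room for a peak elsewhere, so nothing is read from this count beside the 22.0% of the whole H3K4me3 list. In the flanks 23 of 85 did (27.1%, 17.99 to 37.8). By length the overlap was nearly complete, with 99.2% of the H3K4me3 in the runs lying on H3K27me3. Conversely, 36 of 56 H3K27me3 peaks of the runs overlapped H3K4me3 (64.3%, 50.4 to 76.6), against 24.5% of the whole H3K27me3 list and 23 of 72 in the flanks (31.9%). The H3K27me3 peaks of the runs were wider, with a median of 2461 bp beside 498 bp in the list and 715.5 bp in the flanks. A wider peak has more room for an overlap of 1 bp, and the windows were chosen by these peaks, so nothing is read from that difference. Read base by base, 69.1% of the length of the runs was under H3K27me3 alone, 15.9% under H3K27me3 and H3K4me3, and 13.2% under no peak.

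H3K4me3 peaks inside the runs were wider than those outside in 3 of the 4 windows. The median width inside and in the flanks was 879.5 and 407 bp in HOXA, 995.5 and 418 bp in HOXB, and 609 and 357 bp in HOXC. HOXD went the other way, with 381 bp inside and 594 bp in the flanks, over 11 and 9 peaks. Pooled, the median width was 831.5 bp inside, 390 bp in the flanks and 443 bp in the whole list, while the median fold enrichment was close in all 3, at 3.10, 2.92 and 2.96. The widest lay in HOXA at chr2:32667045-32672409, with 5365 bp and a fold enrichment of 3.30, and at chr2:32596797-32601153, with 4357 bp and 3.24. HOXB followed with 4136 bp at chr27:6279638-6283773 and 2694 bp at chr27:6242925-6245618. The widest was 2742 bp in HOXD, at chr7:16266869-16269610, and 2076 bp in HOXC, at chr33:7570815-7572890. The most enriched peaks were not the widest, though the top 3 were wider than the inside median of 831.5 bp. The highest fold enrichments, 5.91 at chr2:32723878-32724936, 5.86 at chr27:6287878-6288783 and 5.85 at chr2:32636029-32637167, belonged to peaks of 1059, 906 and 1139 bp. A fold enrichment of at least 4 was reached by 15 of 98 H3K4me3 peaks in the runs (15.3%, 8.83 to 24.0), 6 of 85 in the flanks (7.06%, 2.63 to 14.7) and 7.68% of the whole list, and the intervals of runs and flanks overlap.

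**Figure D3:**
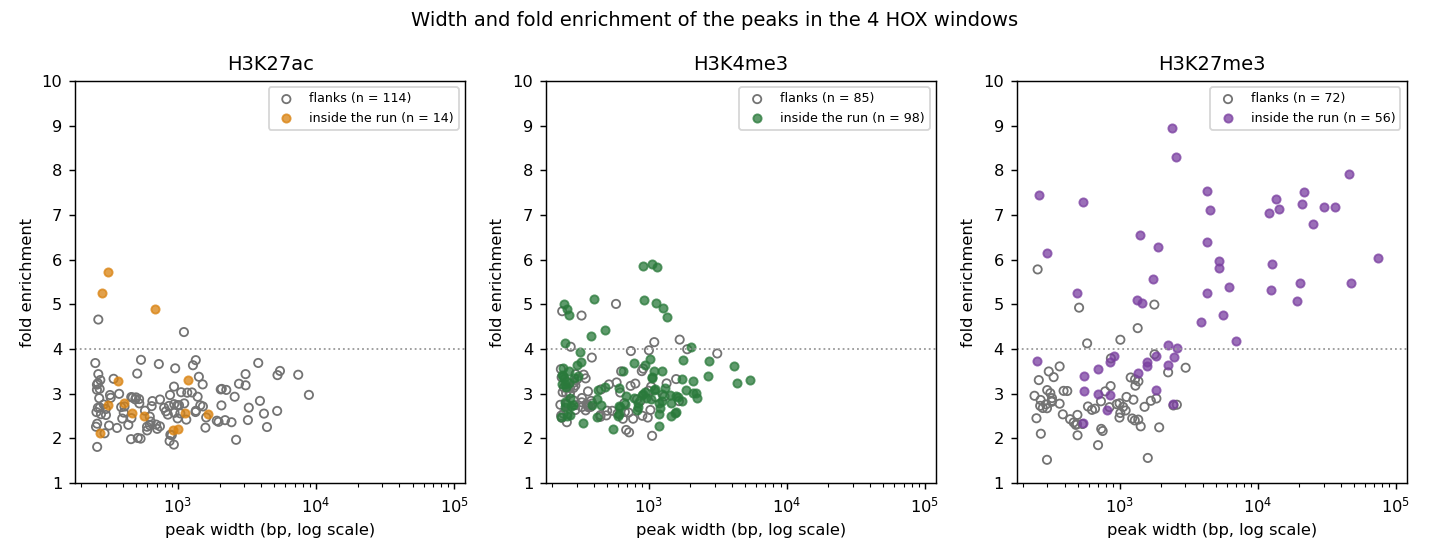
Width (bp, log scale) and fold enrichment of every peak in the 4 windows, by mark, with filled points for peaks inside a run and open points for peaks in the flanks, and a dotted line at a fold enrichment of 4. Pooled over the windows, H3K4me3 peaks have a median width of 831.5 bp inside the runs and 390 bp in the flanks, with HOXD the other way round (381 and 594 bp), and 3 H3K27ac peaks inside the runs stand above all H3K27ac peaks of the flanks.

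H3K4me3 was also not evenly spread along a run. In HOXA it covered 26.7% of the low part, 24.7% of the middle and 14.8% of the high part, and in HOXD the shares were 15.2%, 11.9% and 1.58%. HOXB ran the other way, with 10.8%, 22.8% and 24.5%. HOXC changed least, from 16.0% through 14.5% to 10.7%. In HOXA and HOXB the end with the most H3K4me3 was therefore the fragmented end of the H3K27me3 run, whereas in HOXC and HOXD the more fragmented end held the least.

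With H3K27me3 peaks joined across 3 kb, H3K27ac separated the windows into pairs. The place of HOXA depended on that distance. Joined across 1 kb, its longest stretch was 50.9 kb, from position 32645949, and held no H3K27ac peak. The 74.1 kb of HOXB still held some. Inside the runs 14 H3K27ac peaks were found, 6 in HOXA and 8 in HOXB, and none in HOXC or HOXD. H3K27ac covered 2.23% of the HOXA run and 3.09% of its flanks, a ratio of 0.720, although by number it was about as dense inside as outside, with 3.81 and 3.58 peaks per 100 kb. In HOXB it covered 3.37% of the run and 13.3% of the flanks, a ratio of 0.253. The HOXC flanks were covered as densely as those of HOXB, at 13.3%, and the HOXD flanks to 2.51%. The pooled ratio was 0.211, and 0.353 without the HOXC window. Its direction was not stable. It was 0.0753 with q-values limited to 0.01. When peaks of all 3 marks below a fold enrichment of 4 were dropped, 5 H3K27ac peaks remained and the ratio turned to 1.39. In HOXB it became 8.18, from 1 peak inside and 1 in the flanks. That limit also shortened the HOXA run to 130.6 kb. The 2 remaining H3K27ac peaks at its low end then counted as flank, and the HOXA ratio was 0.

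The 6 H3K27ac peaks of HOXA were crowded into the low end of the run, with midpoints 5.24 to 26.2 kb from that end, which is the first 16.7% of its length. The strongest were at chr2:32576498-32576781 (284 bp, fold enrichment 5.27) and chr2:32580255-32580566 (312 bp, 5.72). They ranked 140 and 73 by fold enrichment in the H3K27ac list of 45426 peaks, so these narrow peaks within a H3K27me3 run were among its most enriched. The other 4 were weaker, at chr2:32586411-32586816 (2.79), chr2:32589662-32589933 (2.11), chr2:32593489-32594056 (2.49) and chr2:32596811-32598472 (2.55, and the widest at 1662 bp). Each of the 6 lay wholly on a H3K27me3 peak, and each overlapped a different H3K4me3 peak over at least 95.2% of its own length. The H3K27me3 peaks beneath them measured 550 to 6175 bp and belonged to the fragmented part of the run. No H3K27ac peak followed for the next 171.7 kb, which took in 82.8% of the run and 41.4 kb beyond it.

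**Figure D4:**
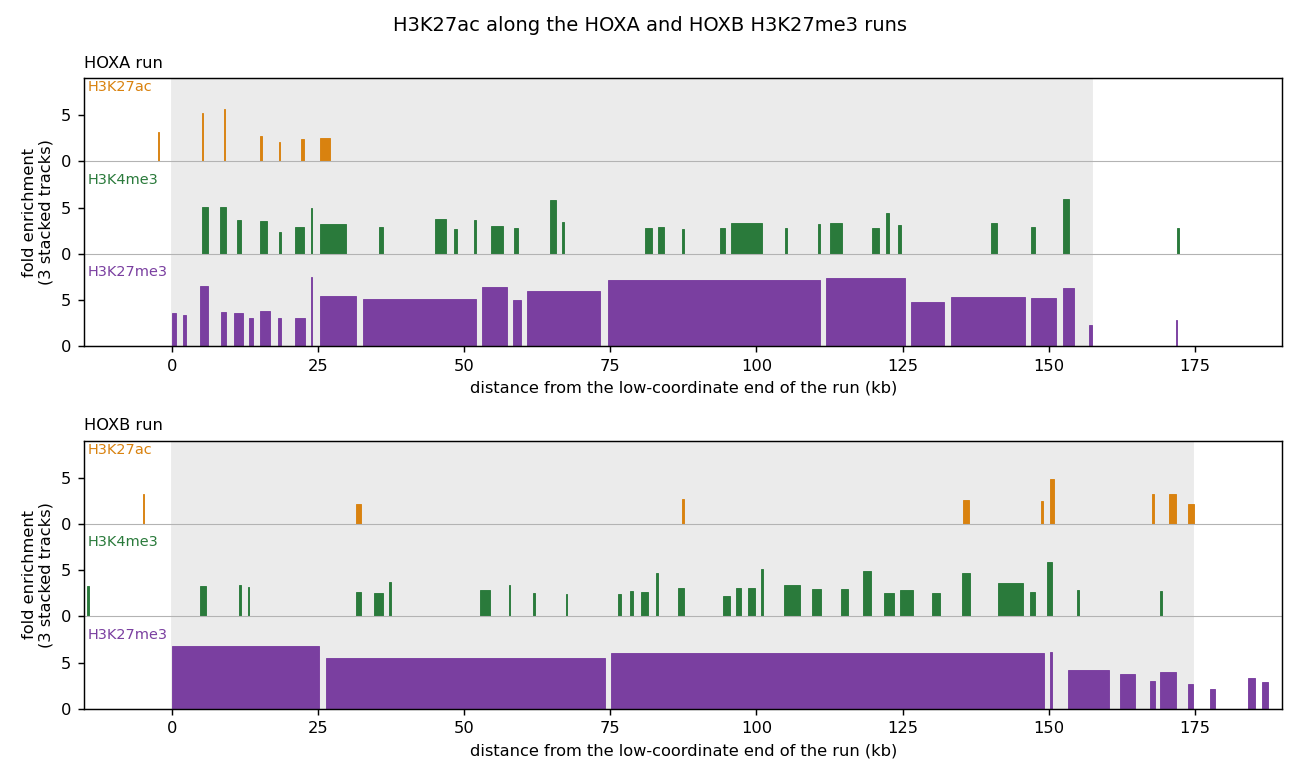
The HOXA and HOXB runs (grey) with the fold enrichment of each H3K27ac, H3K4me3 and H3K27me3 peak against the distance from the low-coordinate end of the run in kb. All 6 H3K27ac peaks of HOXA lie within 26.2 kb of the low end, and 6 of the 8 in HOXB lie between 135.8 and 174.3 kb.

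In HOXB the H3K27ac peaks leaned to the other end. Of the 8, 6 had midpoints 135.8 to 174.3 kb from the low end, within 38.8 kb of the high end. Of the remaining peaks, chr27:6169717-6170639 (fold enrichment 2.19) stood at 31.9 kb and chr27:6225574-6225887 (2.74) at 87.5 kb. Those were on H3K27me3 peaks of 47676 and 74129 bp, both also on H3K4me3. The strongest H3K27ac peak of HOXB was chr27:6288513-6289194, with 682 bp, a fold enrichment of 4.90 and rank 265 in the list. It sat where the widest H3K27me3 peak ended, with 43.3% of its length on a H3K27me3 peak of 296 bp and the rest in a gap. It overlapped over 39.7% the H3K4me3 peak chr27:6287878-6288783, the second in fold enrichment of all H3K4me3 peaks in the windows. Beyond it, chr27:6305862-6306232 (3.29), chr27:6308775-6309951 (3.32) and chr27:6312041-6313044 (2.21) had no H3K4me3, as had chr27:6286845-6287307 (2.56) just before it. The peak chr27:6273514-6274644 (2.58) lay wholly on H3K4me3 and H3K27me3.

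All 14 H3K27ac peaks of the runs overlapped H3K27me3, which follows largely from how the runs were built, so nothing is read from it beside the 9.38% of the whole H3K27ac list. In the flanks 11 of 114 did (9.65%, 4.92 to 16.6). On H3K4me3 lay 10 of 14 (71.4%, 41.9 to 91.6), against 21.1% of the list and 35 of 114 in the flanks (30.7%, 22.4 to 40.03). These were 6 of 6 in HOXA, with 4 of 18 in its flanks (22.2%). In HOXB they were 4 of 8 (50%, 15.7 to 84.3), with 19 of 50 in its flanks (38%, 24.7 to 52.8). H3K4me3 covered 17.0% of the runs and 2.63% of the flanks, which leaves more room for an overlap inside. The same 10 peaks were on both other marks, for which both limits hold, as were 7 of 114 in the flanks (6.14%) and 3.69% of the list. Seen from H3K4me3, the pooled share was lower inside the runs. Of the 98 H3K4me3 peaks in the runs 10 overlapped H3K27ac (10.2%, 5.003 to 17.97). In the flanks 38 of 85 did (44.7%, 33.9 to 55.9), beside 35.4% of the list. The HOXC and HOXD runs held no H3K27ac peak, so their 25 and 11 H3K4me3 peaks could not overlap one. H3K27ac covered 1.63% of the runs and 7.73% of the flanks, which leaves less room for an overlap inside. In HOXA the share was 6 of 30 (20%, 7.71 to 38.6), with 4 of 12 in its flanks (33.3%, 9.92 to 65.1). In HOXB it was 4 of 32 (12.5%), with 22 of 42 in its flanks (52.4%). The intervals overlap in HOXA and not in HOXB. Of the 56 H3K27me3 peaks in the runs 12 overlapped H3K27ac (21.4%, 11.6 to 34.4), near the 18.5% of the list. A fold enrichment of at least 4 was reached by 3 of 14 H3K27ac peaks in the runs (21.4%, 4.66 to 50.8), 2 of 114 in the flanks (1.75%, 0.213 to 6.19) and 3.07% of the list, with intervals that overlap.

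The HOXC and HOXD runs lay in long stretches with no H3K27ac peak at all. Around HOXC the stretch was 217.8 kb, at chr33:7478481-7696283, reaching 42.3 kb before the run and 25.2 kb beyond it. It held 27 H3K4me3 peaks. Around HOXD it was 137.6 kb, at chr7:16229262-16366878, with 22.8 and 21.8 kb outside the run and 11 H3K4me3 peaks. The median distance between H3K27ac peaks was 4.02 kb on chromosome 33 and 8.90 kb on chromosome 7. Such stretches were not confined to the HOX windows, as 5 longer ones existed on chromosome 33, 32 on chromosome 7 and 111 on chromosome 2 beside the 171.7 kb of HOXA. In HOXB the longest stretch within the run was 54.9 kb, and 14 on chromosome 27 were longer.

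Outside the runs the windows differed in the amount of H3K27ac. The HOXB and HOXC flanks at low coordinates were covered to 17.5% and 20.2%, with 28 and 27 peaks, and the flanks at high coordinates to 9.07% and 1.56%, with 22 and 5 peaks. The 4 flanks of HOXA and HOXD held 2.33% to 3.36%. For comparison, H3K27ac covered 7.37% of chromosome 27, 4.72% of chromosome 33, 4.63% of chromosome 7 and 3.02% of chromosome 2. The strongest H3K27ac peaks of the flanks were chr27:6501150-6501414 (265 bp, fold enrichment 4.66) and chr33:7340571-7341675 (1105 bp, 4.38). In the HOXA flanks they were chr2:32919886-32920425 (3.76) and chr2:32385429-32386774 (3.75), and in HOXD chr7:16379809-16381225 (3.38) and chr7:16160673-16161608 (3.16).

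The strongest H3K4me3 peaks of the flanks were chr27:6098535-6099113 (fold enrichment 5.01), chr33:7319017-7319252 (4.85) and chr33:7340541-7340866 (4.75), and the last of these overlaps the strongest H3K27ac peak of the HOXC flanks. In the HOXA and HOXD flanks no H3K4me3 peak exceeded 3.55. H3K27ac came close to the low end of the runs in HOXA and HOXB, with the nearest flank peak 2.15 and 4.74 kb away. At the high end the nearest flank peak was 41.4 kb away in HOXA and 19.8 kb in HOXB. In HOXB, however, the H3K27ac peak chr27:6312041-6313044 crossed the high end and was counted as inside. Other inside peaks had midpoints 3.50 and 6.81 kb from that end. In HOXC and HOXD no H3K27ac peak came closer than 21.8 kb to either end.

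H3K27me3 peaks were more numerous in the flanks of HOXB and HOXC than in those of HOXA and HOXD. Their chromosomes differed in the same way, with 57.6 peaks per Mb on chromosome 27 and 53.5 on chromosome 33. Chromosomes 2 and 7 held 19.95 and 18.6. H3K27me3 covered 4.47% of the HOXB flanks, below the 9.17% of chromosome 27, and 8.37% of the HOXC flanks, above the 6.75% of chromosome 33. The HOXA and HOXD flanks were covered less than their chromosomes (1.38% and 1.55%). These chromosome values include the runs. In the flank at high coordinates of HOXB, 19 peaks all lay within 110 kb of the run, with the nearest at 3.07 kb and the farthest at 108.6 kb, while the other flank held 3 peaks and none within 50 kb. They were narrow and weak, with a median width of 861 bp and a fold enrichment of 2.07 to 3.36. In HOXC 17 peaks lay before the run, 7 of them within 50 kb and none of the others within 110 kb, and 20 lay beyond it, 14 of them within 110 kb. One of the latter, chr33:7784971-7785225, reached 5.78. HOXA had 4 such peaks and HOXD 9. With peaks joined across 10 kb, the HOXB and HOXC runs grew to 237.5 and 195.3 kb, and those of HOXA and HOXD did not change. The HOXC flank at high coordinates is the shortest, at 148.6 kb, because no peak of any list lies on chromosome 33 beyond position 7819709.

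The HOX runs were then set beside the other 52 H3K27me3 runs of at least 20 kb on assembled chromosomes, which were joined in the same way. Those measured 20.1 to 86.4 kb with a median of 27.6 kb, so all 4 HOX runs were longer, as the choice of windows requires. H3K4me3 was no denser in the HOX runs. It covered a median of 19.6% of the other runs, and 20 of them exceeded HOXA, 27 HOXB, 35 HOXC and 43 HOXD. The bare gaps were shared as well, with H3K4me3 on 1.41% of the gap length of the other runs and on 26.3% of their length under H3K27me3. H3K27ac peaks were absent from 31 of the 52 runs and never numbered more than 3 in the rest, below the 6 of HOXA and the 8 of HOXB. Per 100 kb, however, HOXA had 3.81 and HOXB 4.58 peaks, and 15 and 13 of the shorter runs had more.

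**Figure D5:**
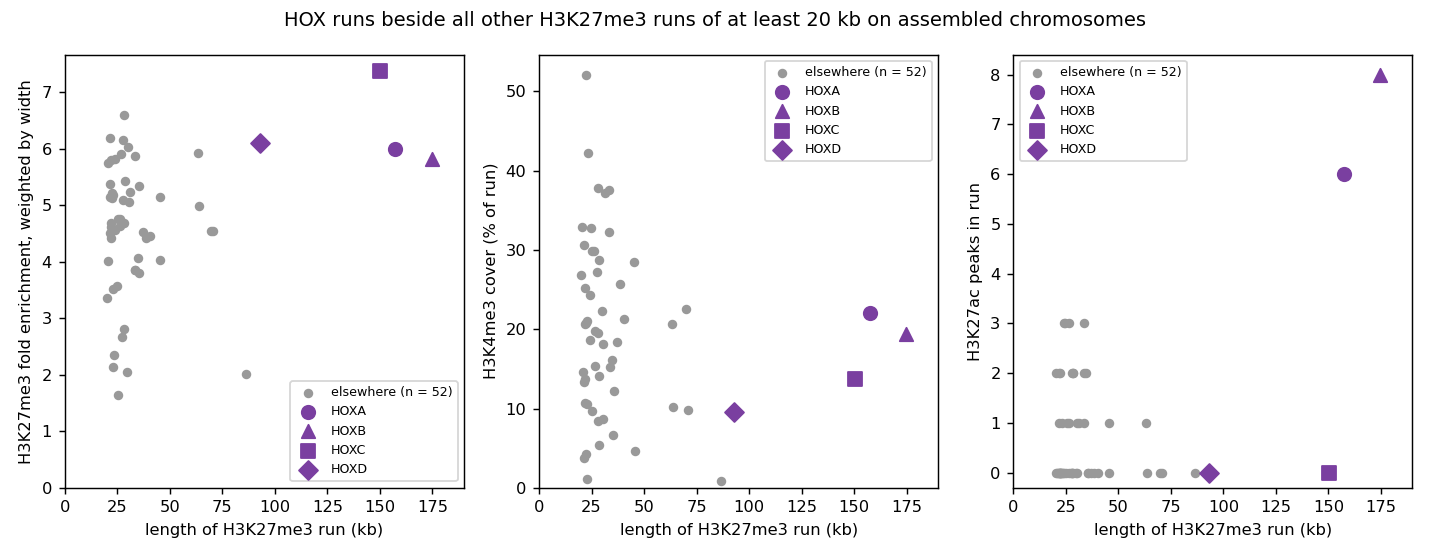
Width-weighted H3K27me3 fold enrichment, H3K4me3 cover (% of the run) and number of H3K27ac peaks against the length (kb) of each H3K27me3 run of at least 20 kb, with the 4 HOX runs as purple symbols and the 52 runs elsewhere in grey. HOXC has the highest fold enrichment at 7.38, the H3K4me3 cover of all 4 lies within the range of the other runs, and HOXA and HOXB have more H3K27ac peaks than any other run.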

How the data were processed

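Per the labels, tissue from about 200 pieces of OEP ectoderm was used for ChIPseq of 3 marks. The submitters' processing notes name Trim Galore, BWA, MACS2 and galGal6, and broad peaks were called under a limit on the false discovery rate, the largest q-value in the deposited lists being 0.0988. Whether input was the control is not given in the sources used here. The deposited lists hold start and end positions, a fold enrichment (a ratio over the local background, computed by the authors' peak caller), −log10 p-values and −log10 q-values; the score column of the authors' lists was not used. Read depth is not in the lists, and a broader or deeper library can yield more and wider peaks, so peak numbers are not compared between marks as amounts.

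Peaks were grouped by window, and as inside the run (overlapping it) or in a flank. Overlap meant at least 1 bp. Starts were converted to 1-based positions. Analyses used Python 3.11.15, pandas 2.3.3, NumPy 2.4.6, SciPy 1.17.1 and matplotlib 3.10.9, and interval functions were tested on simulated data. Sites named are the run, its widest peaks, H3K27ac peaks in runs, gaps over 1 kb and the strongest flank peaks of each window. The peaks of the highest fold enrichment inside runs and the strongest H3K27me3 flank peaks were named after their values were seen. Windows, sites and comparisons were chosen with earlier results of these data known. Alternatives covered the q-value, fold enrichment, joining distance, flank length, overlap and window.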

Additional observations from a re-analysis of the deposited data

How the results depend on the processing

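Of 89 alternative values, 65 stayed close to the reported value (equal, within 1.5 times, or within the interval of a share), 22 moved further and 2 reversed. The 65 include the H3K27ac ratios of HOXC and HOXD, which stayed at 0 under 4 and 3 alternatives. Dropping H3K27ac peaks or shortening the flanks could not move a ratio of 0. Requiring a fold enrichment of at least 4 left 5 H3K27ac, 21 H3K4me3 and 44 H3K27me3 peaks in the windows, and turned the H3K27ac cover ratio of runs over flanks to 1.39 pooled and 8.18 in HOXB. This rests on few peaks, and under this limit the HOXA run shortened to 130.6 kb and no longer held its H3K27ac peaks. The share of H3K27ac peaks on H3K27me3 became 40% of those 5. Limiting q-values to 0.01 or below left 83 H3K27ac and 99 H3K4me3 peaks and gave ratios of 10.03 for H3K4me3 and 0.0753 for H3K27ac. Joining across 1 kb cut the runs to 50.9 kb in HOXA, 74.1 kb in HOXB, 45.6 kb in HOXC and 30.2 kb in HOXD, since most gaps exceed that distance. The HOXA stretch then held no H3K27ac peak, and the cover ratios were not computed for these shorter runs. Weighting by width raised the fold enrichment of all H3K27me3 peaks in the windows from 3.31 to 5.94. Leaving out windows in turn was chosen after seeing the data, and moved the H3K4me3 ratio to 9.93 without HOXB and the H3K27ac ratio to 0.353 without HOXC. Distances to gene starts were not run, as no annotation of GalGal6 was used. No paired analysis was possible because every mark was profiled in a single library.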

Other observations

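Many overlapping peaks of different marks began or ended within 10 bp of each other. In the HOX windows this held for 35.8% of the 53 H3K27ac peaks, 12.6% of the 151 H3K4me3 peaks and 30.8% of the 65 H3K27me3 peaks that overlapped another mark. In the whole lists the shares were 31.2%, 29.9% and 33.9%. Within the runs such an edge was found at 7 of the 14 H3K27ac peaks. It was found at 8 of 98 for H3K4me3 and 9 of 56 for H3K27me3. These counts are over all peaks of the runs, and 18 of the 56 H3K27me3 peaks overlapped neither other mark. The 7 took in all 3 H3K27ac peaks of the runs with a fold enrichment of at least 4. These were chr2:32576498-32576781, chr2:32580255-32580566 and chr27:6288513-6289194, with an edge of another mark 2, 7 and 1 bp away. The cause was not tested, and the comparison was chosen after seeing the data.

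Some flank peaks of HOXC had a high −log10 q-value at a modest fold enrichment, such as the H3K27me3 peaks chr33:7681454-7681871 (45.8 at a fold enrichment of 3.06) and chr33:7368530-7369542 (20.5 at 4.21). The H3K4me3 peak chr33:7565317-7565563 inside the HOXC run had 18.8 at 4.13, and the H3K27ac peak chr2:32919886-32920425 in the HOXA flank had 17.8 at 3.76.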
